A study of Mus musculus with 18 samples.

Results

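The comparison described here set C2C12 cells overexpressing the genomic form of MUNC against control C2C12 cells after 3 days in differentiation medium (DM3). It used 6 of the 18 libraries of the study, 3 of MUNC genomic DM3 and 3 of Control DM3. Members were all 13869 genes, of 35275 listed, that reached 0.5 FPM or more in at least 3 of the 18 libraries. FPM is the number of reads of a gene divided by a scaling factor for the size of its library. C2C12 is an established line of mouse myoblasts, and the labels describe this stock as PAX7 negative. Cells grew in DMEM with 20% fetal bovine serum (growth medium, GM), and differentiation was started by a change to 2% horse serum. Control cells carried the wild-type label in both media, and the MUNC genomic and MUNC spliced cells are labelled as overexpressing the unspliced or the spliced transcript. The promoter and vector of the transgenes, whether a line is 1 clone, and whether control cells received an empty vector are not given in the sources used here.

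MUNC is a noncoding transcript made from a distal regulatory region in front of Myod1. RefSeq lists it as Gm45923 at chr7:46371403-46372492 on GRCm38.p6, before Myod1 at chr7:46376474-46379092. No row of the deposited table carried a name of MUNC, so its own level was not analysed here and the overexpression was not checked. Recovered depth was 50964504 to 63964247 reads in the 6 libraries, so that a count of 0 allowed at most 0.0594 FPM (3 reads), for counting error only. Log2 values correlated at 0.989 to 0.996 within Control DM3, 0.994 to 0.996 within MUNC genomic DM3 and 0.930 to 0.935 between them, across genes. Of the defining markers of myoblasts, Myf5 and Des were present in the control libraries while Myod1 was at or near 0 there, and Pax7 stayed at or below 0.15 FPM in every library. Control GM replicate 2 stood apart. It held 3400.4 FPM summed over the list of interferon effector genes, against 1969.5 and 1641 FPM in the other Control GM libraries. For part of the results on growth medium, values without it are given as well.

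Cells that meet type I interferon, or viral nucleic acid that leads to its release, switch on a shared set of antiviral genes. The receptor chains Ifnar1 and Ifnar2 activate the kinases Jak1 and Tyk2, and these lead to a complex called ISGF3, which contains Stat2 and Irf9. ISGF3 binds a short element in target promoters, the interferon-stimulated response element (ISRE). In muscle, Myf5 and Myod1 mark committed myoblasts, Myog starts terminal differentiation, and sarcomere and fusion genes follow as the cells leave the cell cycle.

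The ISRE was searched as the letters GAAA, any 2 bases and GAAA again, on both strands, in RefSeq promoter windows of GRCm38.p6, from 250 bases before to 50 bases after each start. Of 70 tested interferon effectors, 57 matched a window, and 30 of the 57 (52.6%) held the element, as did 9 of 10 matched interferon-induced GTPases. In the other interferon lists the share was lower. It was 5 of 19 (26.3%) for MHC class I genes and 3 of 14 (21.4%) each for the sensing list and the receptor and JAK-STAT list. Among all tested genes with a window the share was 384 of 10281 (3.74%), and among all 32851 windows it was 3.44%. Stretches before the start of 5 genes that were lower in MUNC genomic DM3 follow, with each match in capitals. They show the element in 2 effectors, a GTPase, a class I gene and a subunit of ISGF3.
Oas3, chr5:120777685-120777774, minus strand: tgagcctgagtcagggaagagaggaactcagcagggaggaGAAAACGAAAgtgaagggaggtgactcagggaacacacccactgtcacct
Ifit3, chr19:34583333-34583422, plus strand: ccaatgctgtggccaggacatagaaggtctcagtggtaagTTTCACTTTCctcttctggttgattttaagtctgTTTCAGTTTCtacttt
Gbp7, chr3:142530243-142530332, plus strand: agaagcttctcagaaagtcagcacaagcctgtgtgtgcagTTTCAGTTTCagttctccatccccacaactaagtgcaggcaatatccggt
B2m, chr2:122147508-122147597, plus strand: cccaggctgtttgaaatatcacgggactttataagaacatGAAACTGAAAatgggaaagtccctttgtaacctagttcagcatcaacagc
Stat2, chr10:128270248-128270325, plus strand: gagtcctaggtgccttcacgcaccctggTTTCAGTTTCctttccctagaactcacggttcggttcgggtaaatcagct
In Ifit3, Gbp7 and Stat2 the printed strand carries the reverse complement of the searched letters, and the stretch of Ifit3 holds 2 matches. The 50 interferon genes whose window held the element had a median difference of -3.09 in DM3, and the 64 whose window did not had one of -1.70. The E-box CAGCTG, a sequence bound by Myod1 and Myog, was searched in the same windows and was held by 9 of 23 matched sarcomere genes (39.1%) and 11 of 22 matched myotube membrane and fusion genes. Its share was 18.2% among all tested genes with a window, and it was also found in 5 of 12 matched chemokine and cytokine genes (41.7%), 5 of 14 receptor and JAK-STAT genes (35.7%) and 6 of 18 Notch genes (33.3%). The window of Chrng, which was lower, held it as well. Stretches from 3 genes that were higher in MUNC genomic DM3 are shown for comparison, with the E-box in capitals.
Des, chr1:75360216-75360291, plus strand: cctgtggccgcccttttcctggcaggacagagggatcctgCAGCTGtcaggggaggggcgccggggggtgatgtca
Mylpf, chr7:127211517-127211602, plus strand: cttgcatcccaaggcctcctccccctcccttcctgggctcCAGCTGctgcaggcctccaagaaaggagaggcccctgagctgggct
Musk, chr4:58285854-58285939, plus strand: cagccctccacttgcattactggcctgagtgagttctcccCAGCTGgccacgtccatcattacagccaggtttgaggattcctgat
None of the 23 matched sarcomere windows held the ISRE letters. Genes that were higher in MUNC genomic DM3 could hold them. They were in 8 of 171 matched genes higher by 2 or more (4.68%) and 3 of 30 higher by 4 or more (10%), Gfra1 among them. Lower genes outside the interferon lists held them in 16 of 162 matched genes at 2 or more (9.88%). At 4 or more it was 3 of 27 (11.1%). A match describes the letters of a window and is not evidence of binding.

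Of the 13869 genes tested, 40.3% differed between MUNC genomic and Control DM3 at a Benjamini-Hochberg adjusted p under 0.05 in limma, 19.3% higher and 20.9% lower. A gene past this threshold is called here. The interferon genes were held in 5 lists, and 140 of their genes were tested. Of these, 117 were lower and 6 were higher, with a median difference of -2.66 on the log2(FPM + 1) scale, against -0.01 over all genes tested. The 13729 genes outside the lists had 2786 lower, 2677 higher and a median of -0.01. The share of interferon genes grew with the size of the fall. They made up 87 of the 313 genes lower by 2 or more (27.8%), 41 of 81 lower by 4 or more (50.6%) and 14 of 17 lower by 6 or more (82.4%). None of the 226 genes higher by 2 or more was on these lists. In bulk RNA, fewer cells of one kind and less RNA per cell cannot be told apart.

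Among the genes that carry the interferon signal, Stat2 and Irf9 were lower while the receptor chains and their kinases were not called. Of 15 tested members of the receptor and JAK-STAT list, 5 were lower and 1 was higher, against 20.9% and 19.3% of all genes. The median was -0.14. With the replicate number as a block 6 were lower and 2 were higher. Stat2 measured 516, 532 and 516 FPM in the Control DM3 libraries and 48.1, 59.2 and 69.0 FPM in MUNC genomic DM3, a difference of -3.14 ± 0.35 (SE, n = 3 per group, limma adjusted p = 1.87e-06). Irf9, the DNA-binding subunit, measured 144, 146 and 137 FPM in control and 15.3, 19.6 and 21.2 FPM in MUNC genomic libraries, a difference of -2.88 ± 0.25 (SE, limma adjusted p = 1.09e-07). For both genes every MUNC genomic library was below every control library.

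Ifnar1 measured 78.4, 83.6 and 82.4 FPM in Control DM3 against 88.4, 93.4 and 88.5 FPM in MUNC genomic DM3, a difference of 0.14 ± 0.09 (SE, limma adjusted p = 0.246). Ifnar2 differed by -0.14 ± 0.11 (SE), Jak1 by 0.01 ± 0.10 (SE) and Tyk2 by -0.17 ± 0.16 (SE), with limma adjusted p-values of 0.356, 0.922 and 0.409. The receptor and kinase differences lay between -0.17 and 0.14, and those of Stat2 and Irf9 were -3.14 and -2.88. Irf2, a repressor that binds similar promoter elements, was lower, with a difference of -0.60 ± 0.13 (SE), as was Socs1, a feedback inhibitor of the kinases, with one of -0.98 ± 0.21 (SE). Ifngr1, a chain of the receptor for interferon gamma, was the 1 higher member, at 71.9, 82.1 and 70.1 FPM in control and 148, 142 and 134 FPM in MUNC genomic libraries. Its difference was 0.92 ± 0.15 (SE, limma adjusted p = 1.11e-04).

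The interferons themselves were close to the detection limit. None of 19 interferon genes listed passed the filter on low values. Over the 19 genes together, each Control DM3 library held 7 to 20 reads, each MUNC genomic DM3 library 0 to 2 reads and each MUNC spliced DM3 library 31 to 48 reads. Ifng, the gene of interferon gamma, held 34, 22 and 10 of the MUNC spliced DM3 reads and 0 in each Control DM3 library. Ifnb1, a type I interferon, held 9, 5 and 10 reads in Control DM3 and 7, 9 and 10 in MUNC spliced DM3. It held 0 in each MUNC genomic DM3 library. These reads are too few for a test by gene.

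The sensors of foreign nucleic acid did not move together. Of 17 tested genes of the sensing list, 10 were lower and 2 were higher, with a median of -0.71. Irf7, the transcription factor that amplifies interferon production, showed the largest fall of this list, from 626, 583 and 510.3 FPM in Control DM3 to 4.55, 4.91 and 6.79 FPM in MUNC genomic DM3. The difference was -6.49 ± 0.54 (SE, limma adjusted p = 6.43e-08). The RNA helicases Ifih1 (MDA5), Dhx58 (LGP2) and Ddx58 (RIG-I) were lower, with differences of -5.77 ± 0.37, -5.03 ± 0.28 and -2.52 ± 0.36 (SE). Ifih1 measured 285, 206 and 156 FPM in control and 2.85, 3.49 and 2.30 FPM in MUNC genomic libraries. Mb21d1, the DNA sensor cGAS, measured 9.66, 9.45 and 8.14 FPM in control and 1.48, 1.20 and 1.13 FPM in MUNC genomic libraries, a difference of -2.15 ± 0.21 (SE, limma adjusted p = 6.02e-07).

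Genes that act after the sensors went in different directions. Irf5, a transcription factor, was lower by a difference of -1.76 ± 0.23 (SE), the adaptor Myd88 by -0.71 ± 0.12 (SE) and the adaptor Ticam1 by -0.42 ± 0.13 (SE), with limma adjusted p-values of 1.22e-05, 2.26e-04 and 0.0144. The call of Ticam1 was lost without Control DM3 replicate 3 or MUNC genomic DM3 replicate 1 or 2, with limma adjusted p-values of 0.0745, 0.0586 and 0.0519. The adaptors Mavs and Tmem173 (STING) differed by -0.15 ± 0.11 and -0.17 ± 0.34 (SE), and the kinase Tbk1 by -0.01 ± 0.08 (SE), with limma adjusted p-values of 0.291, 0.725 and 0.951. Irf3, the factor that Tbk1 phosphorylates, was higher in every MUNC genomic library, at 35.1, 36.4 and 36.8 FPM against 26.3, 27.1 and 25.7 FPM in control. Its difference was 0.44 ± 0.09 (SE, limma adjusted p = 7.60e-04). Aim2, a cytosolic DNA sensor that starts an inflammasome, was higher by 1.21 ± 0.17 (SE), with 24.3, 31.9 and 25.8 FPM in control and 62.5, 65.9 and 63.9 FPM in MUNC genomic libraries.

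Nearly all effectors were lower. Of 70 tested effector genes, 67 were lower and 2 were higher, with a median of -3.28. Summed over the list, they reached 20814, 16952 and 14409 FPM in the Control DM3 libraries and 2025, 1909.8 and 2084 FPM in MUNC genomic DM3. Ifit3, of a family of proteins that act on foreign RNA, measured 1056, 696 and 499.7 FPM in control and 2.31, 3.13 and 3.10 FPM in MUNC genomic libraries, a difference of -7.55 ± 0.76 (SE, limma adjusted p = 6.52e-07). Oas3, an enzyme whose product activates RNase L, measured 262, 276 and 256 FPM in control and 0, 0.0301 and 0.0390 FPM in MUNC genomic libraries, 1 of which held no read. Isg15, a ubiquitin-like protein joined to other proteins during infection, fell from 587, 403 and 377 FPM to 7.10, 6.01 and 8.04 FPM, a difference of -5.81 ± 0.43 (SE, limma adjusted p = 1.53e-08).

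The other 3 effectors were higher or not called. Ifi27, a small mitochondrial protein, was higher, at 104, 96.8 and 104 FPM in MUNC genomic DM3 against 58.5, 63.7 and 57.2 FPM in control, a difference of 0.75 ± 0.22 (SE, limma adjusted p = 0.0128). Sp110, a nuclear body protein, was higher by 0.79 ± 0.10 (SE), from a low level of 0.269, 0.197 and 0.203 FPM in control and 1.35, 1.14 and 0.859 FPM in MUNC genomic libraries. Nmi, a partner of STAT proteins, was not called, at 0.10 ± 0.26 (SE, limma adjusted p = 0.805).

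All 15 tested interferon-induced GTPases, which attack the membranes around intracellular parasites, were lower, with a median of -4.28. Iigp1 measured 729.7, 426 and 264 FPM in Control DM3 against 0.712, 1.49 and 0.917 FPM in MUNC genomic DM3, a difference of -7.76 ± 0.78 (SE, limma adjusted p = 6.50e-07). Gbp7, a guanylate-binding protein of the same group, was lower, with a difference of -7.04 ± 0.56 (SE). Their reads could be shared with near-identical neighbours of the same family, as could those of the Oas and Ifit genes.

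The genes that load peptides onto MHC class I fell less. Of 23 tested, 20 were lower and 1 was higher, with a median of -1.50. B2m, the light chain of class I molecules, measured 2712, 2883 and 2157 FPM in Control DM3 against 319.7, 323 and 291 FPM in MUNC genomic DM3, a difference of -3.04 ± 0.21 (SE, limma adjusted p = 6.89e-09). Tap1, a subunit of the peptide transporter, was lower, with a difference of -4.36 ± 0.27 (SE), and so was Psmb9, a subunit of the immunoproteasome, with one of -3.01 ± 0.17 (SE). The higher member was Tapbpl, a peptide editor, at 0.51 ± 0.19 (SE, limma adjusted p = 0.0399). Its call was lost in 5 of 6 fits that left out 1 library each, with limma adjusted p-values from 0.0688 to 0.187, and held without Control DM3 replicate 1 alone.

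**Figure D1:**
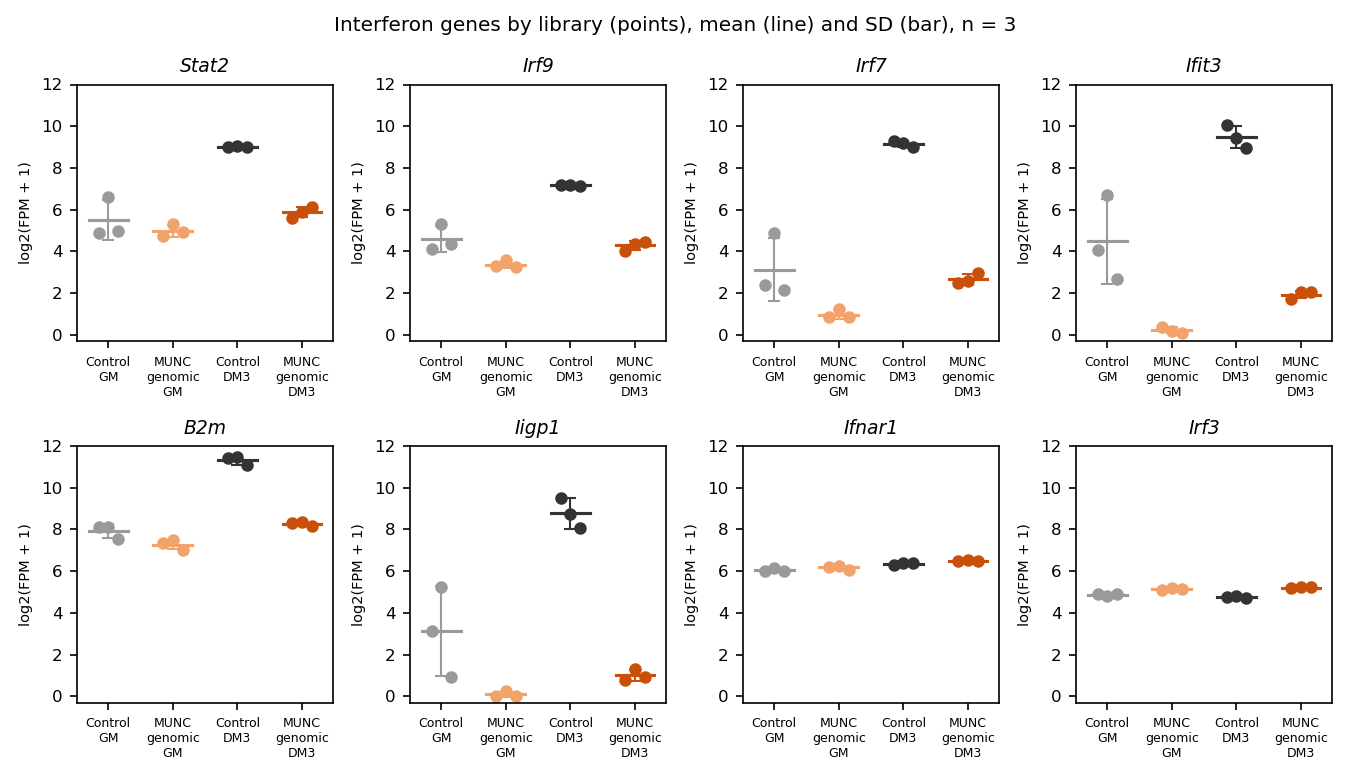
Level of 8 genes in log2(FPM + 1) in each of the 12 control and MUNC genomic libraries, with points for libraries, lines for group means and bars for the SD (n = 3). Stat2, Irf9, Irf7, Ifit3, B2m and Iigp1 are higher in Control DM3 than in every other group shown, while Ifnar1 and Irf3 stay within about 1 log2 unit across the groups.

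Most interferon genes were higher in DM3 than in GM in control cells, and fewer were in MUNC genomic cells. Between GM and DM3, 127 of the 140 interferon genes were higher in control cells, against 29.6% of all genes tested. In MUNC genomic cells 61 of the 140 were higher, against 26.3% of all genes. The medians of the effectors were 2.90 in control and 0.42 in MUNC genomic cells. These contrasts share the DM3 libraries with the comparison above and are values beside it. Summed effectors were 1969.5, 3400.4 and 1641 FPM in Control GM and 1467, 1597 and 1212 FPM in MUNC genomic GM.

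Part of the difference was already present in growth medium, in libraries separate from those of DM3. Of the 70 effectors, 34 were lower in MUNC genomic than in Control GM by limma (14.5% of all genes) and 1 was higher. The median was -0.76. With the replicate number as a block 40 were lower and 2 were higher. Without Control GM replicate 2, 26 were lower and the median was -0.38. Over the 5 interferon lists together, 51 were lower in growth medium, and 38 without that library. A test of the difference between media, the interaction, called 60 effectors more strongly lowered in DM3, 11 of 15 GTPases and 15 of 23 MHC class I genes, against 5.25% of all genes. Without Control GM replicate 2 it called 65 effectors and 13 GTPases. Ifi27 was the effector that had an interaction in the other direction (3.56% of all genes).

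The number of interactions depended on the scale and test. On recovered reads, where the ratio is not damped by the added 1 FPM, edgeR called 42 effectors lower in growth medium (15.5% of all genes), with a median log2 ratio of -1.75 against -4.67 in DM3. It called 34 of the 70 effectors, and 1 of the 15 GTPases, more strongly lowered in DM3 (3.19% of all genes). For Ifit3 the edgeR log2 ratio was -8.02 in DM3 and -7.72 in growth medium (interaction edgeR adjusted p = 0.948). Its limma interaction was not called either (adjusted p = 0.0690), but was without Control GM replicate 2 (adjusted p = 0.00251). For Oas2, a relative of Oas3, it was -10.03 and -8.47 (edgeR adjusted p = 0.875). For Ifi44, a protein of the same interferon response, it was -9.41 and -5.63 (edgeR adjusted p = 0.140).

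The interactions of Stat2, B2m and Dhx58 were called on both scales. Stat2 differed by -0.52 ± 0.35 (SE) in growth medium, with an interaction of -2.63 ± 0.49 (SE, limma adjusted p = 0.00272, edgeR adjusted p = 0.0138), and B2m one of -2.39 ± 0.30 (SE, limma adjusted p = 8.72e-05, edgeR adjusted p = 3.75e-04). Dhx58 had an interaction of -3.97 ± 0.39 (SE, edgeR adjusted p = 2.19e-04). These 3 calls held without Control GM replicate 2. Mb21d1 differed by -2.14 ± 0.21 (SE) in growth medium, with an interaction of -0.00 ± 0.30 (SE, limma adjusted p = 0.995).

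**Figure D2:**
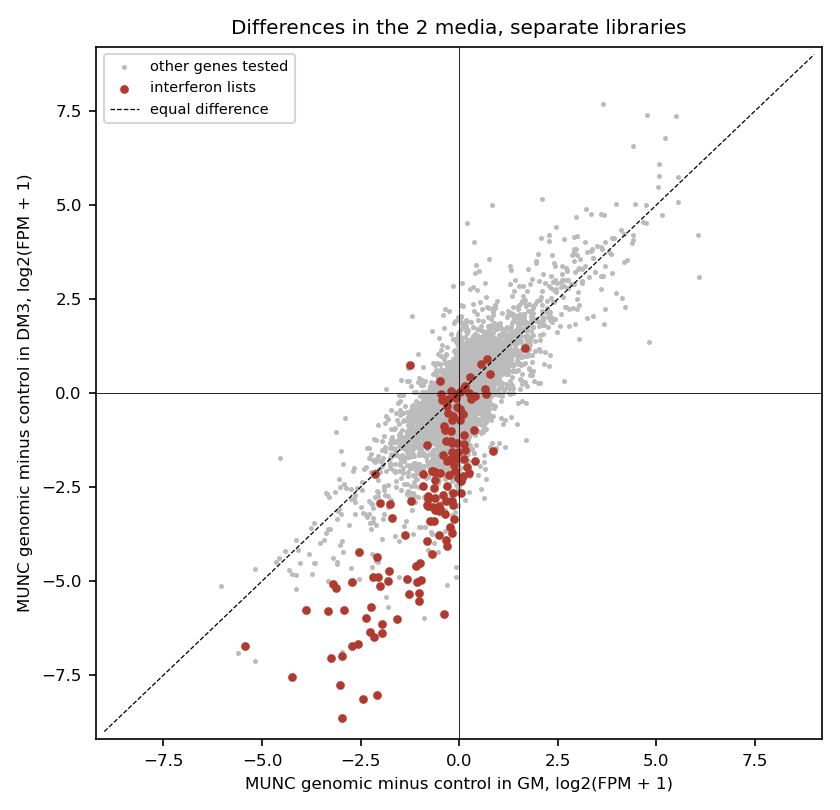
Difference between MUNC genomic and control cells in DM3 (vertical) against that in GM (horizontal), both in log2(FPM + 1), for each gene tested. Genes of the 5 interferon lists (red) lie mostly below the dashed line of equal difference, with medians of -2.66 in DM3 and -0.48 in GM. Without Control GM replicate 2 the GM median was -0.24.

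The fall was also seen against the other MUNC line in the same medium. Of the 70 effectors, 61 were lower in MUNC genomic than in MUNC spliced DM3 (23.4% of all genes lower, 20.8% higher), with a median of -2.40. Stat2 measured 281, 401 and 466 FPM in MUNC spliced DM3 and Ifit3 295, 716 and 555 FPM, in each case above every MUNC genomic library. The spliced line was itself lower than control for part of the list. Of the 70 effectors, 28 were lower and 1 was higher in MUNC spliced than in Control DM3, with a median of -0.66. Of all 13869 genes tested, 2913 were lower and 3088 were higher there. The comparison of the 2 MUNC lines shares the MUNC genomic libraries with the main one, and that of MUNC spliced with control shares the control libraries. Both are given beside it as values.

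Chemokines and cytokines went both ways. Of 18 tested, 12 were lower and 4 were higher, against 20.9% and 19.3% of all genes. The median was -0.94. The count of lower genes was 8 without Control DM3 replicate 1 or without MUNC genomic DM3 replicate 2. Ccl5, which attracts T cells, measured 312, 273 and 199.7 FPM in Control DM3 against 2.59, 0.602 and 0.781 FPM in MUNC genomic DM3, a difference of -6.89 ± 0.31 (SE, limma adjusted p = 3.56e-11). Cxcl10, an interferon-induced ligand of Cxcr3, was lower in both media, with differences of -3.62 ± 0.48 (SE) in DM3 and -3.32 ± 0.48 (SE) in growth medium. Cxcl12, which guides migrating muscle progenitors through Cxcr4, was higher, at 172, 168 and 160.1 FPM in control and 581, 565 and 566 FPM in MUNC genomic libraries. Cx3cl1, a membrane-bound chemokine, was higher by 2.57 ± 0.18 (SE, limma adjusted p = 9.21e-09).

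**Figure D3:**
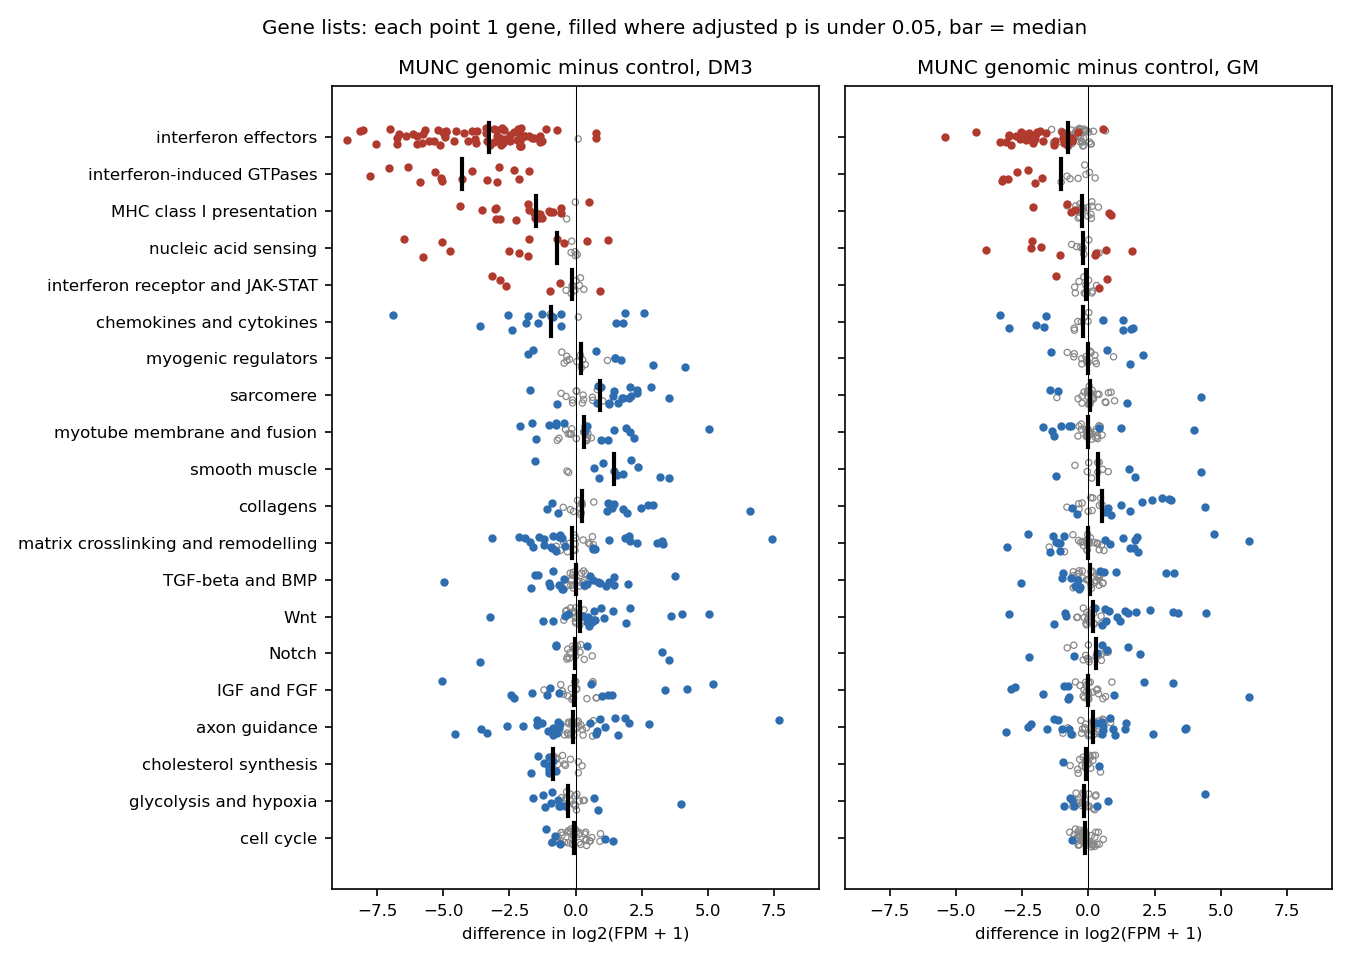
Difference between MUNC genomic and control cells in log2(FPM + 1) for each tested member of 20 gene lists, in DM3 (left) and GM (right), filled where the adjusted p was under 0.05, with bars at list medians. The 5 interferon lists (red) have DM3 medians from -4.28 to -0.14, while the sarcomere and smooth muscle lists (blue) have medians of 0.90 and 1.46.

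The myogenic regulators did not move as a group. Of 19 tested, 6 were higher and 2 were lower in MUNC genomic DM3, against 19.3% and 20.9% of all genes. The median was 0.22. With the replicate number as a block 9 were higher and 4 were lower. Myf5, a determination factor, was lower, at 95.0, 109.9 and 105 FPM in Control DM3 against 34.4, 33.8 and 20.0 FPM in MUNC genomic DM3, a difference of -1.82 ± 0.17 (SE, limma adjusted p = 3.00e-07). Eya1, a transcriptional co-activator, was lower, with a difference of -1.61 ± 0.15 (SE), and had an interaction of -1.36 ± 0.22 (SE), while its relative Eya4 was higher by 0.76 ± 0.15 (SE). Myod1 stood at 0.0768, 0 and 0.221 FPM in control, where 1 library held no read, and at 18.1, 22.5 and 14.5 FPM in MUNC genomic libraries. Myog measured 0.192, 0.434 and 0.405 FPM and 7.89, 14.7 and 6.50 FPM. Both genes were also above control in MUNC spliced DM3. Reads there were 2810, 940 and 883 for Myod1 and 11897, 3017 and 2265 for Myog. In MUNC genomic DM3 they were 913, 1494 and 745 for Myod1 and 399, 977 and 333 for Myog.

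Mef2a, a factor that acts with Myod1 and Myog at muscle promoters, was higher, at 117, 123 and 108 FPM in Control DM3 against 345, 319.8 and 306 FPM in MUNC genomic DM3. Its difference was 1.47 ± 0.19 (SE, limma adjusted p = 9.56e-06). Id1 and Id3, which bind E proteins and keep myogenic factors from DNA, were higher as well, by 1.47 ± 0.52 and 1.71 ± 0.43 (SE, limma adjusted p = 0.0313 and 0.00451). The call of Id1 was lost without MUNC genomic DM3 replicate 1 and without Control DM3 replicate 2 or 3, with limma adjusted p-values of 0.131, 0.0926 and 0.0956.

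More contractile genes were higher than lower. Of 32 tested sarcomere genes, 17 were higher and 2 were lower, with a median of 0.90; in growth medium 2 were higher (12.2% of all genes) and 2 were lower, while edgeR gave 4 higher and DESeq2 7. The interaction was called for 8, all higher in DM3, by limma (8 and 1 lower with the replicate number as a block) and for 4 higher and 1 lower by edgeR. Mylpf, a fast regulatory light chain, measured 1.86, 4.66 and 3.54 FPM in Control DM3 against 15.3, 32.2 and 15.4 FPM in MUNC genomic DM3, a difference of 2.30 ± 0.49 (SE, limma adjusted p = 0.00134). In MUNC spliced DM3 it measured 159.8, 30.0 and 35.1 FPM. Myl1, an alkali light chain, was higher by 2.33 ± 0.39 (SE). Against MUNC spliced DM3, 17 of the 32 sarcomere genes were lower in MUNC genomic DM3 and 4 were higher. Myom2, an M-band protein, went the other way from most, at 40.6, 68.3 and 46.3 FPM in control and 11.0, 18.1 and 15.1 FPM in MUNC genomic libraries.

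Des, the intermediate filament of muscle, was higher in both media. It measured 64.2, 76.2 and 92.0 FPM in Control DM3 against 1010.0, 820.4 and 863 FPM in MUNC genomic DM3, a difference of 3.53 ± 0.34 (SE, limma adjusted p = 3.94e-07). In growth medium it was already at 475, 622 and 332 FPM in MUNC genomic cells against 23.9, 32.7 and 16.0 FPM in control, and no interaction was called (-0.73 ± 0.48, SE, limma adjusted p = 0.410). In MUNC spliced DM3 it measured 94.4, 37.3 and 44.7 FPM, overlapping control.

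Genes of the myotube membrane and fusion went both ways. Of 34 tested, 10 were higher and 7 were lower, against 19.3% and 20.9% of all genes. The median was 0.31. Musk, the receptor kinase that assembles the postsynaptic membrane, measured 0.442, 0.395 and 0.608 FPM in Control DM3 against 37.0, 52.2 and 54.0 FPM in MUNC genomic DM3, a difference of 5.02 ± 0.17 (SE, limma adjusted p = 7.62e-13). It was also higher in growth medium, by 3.97 ± 0.17 (SE). Chrng and Chrnd, subunits of the acetylcholine receptor that Musk clusters, were lower, with differences of -2.09 ± 0.43 and -1.66 ± 0.47 (SE). Chrng measured 24.9, 60.4 and 66.4 FPM in control and 9.66, 12.05 and 8.92 FPM in MUNC genomic libraries, and the groups did not overlap. Chrna1, another subunit of that receptor, was higher, at 70.7, 121 and 101 FPM in control and 182, 206 and 164 FPM in MUNC genomic libraries. Its difference was 0.94 ± 0.28 (SE, limma adjusted p = 0.0120), with a limma adjusted p of 0.0633 without Control DM3 replicate 1. Chrnb1, also a subunit, differed by -0.63 ± 0.25 (SE, limma adjusted p = 0.0503), which was not called by limma or edgeR but was by DESeq2 and with the replicate number as a block. Ryr1, the calcium release channel, was higher by 2.19 ± 0.39 (SE) and had an interaction of 2.46 ± 0.55 (SE, limma adjusted p = 0.00953, edgeR adjusted p = 0.00568).

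Smooth muscle genes had the highest median of the lists in the plot of lists. Of 15 listed, 13 were tested. Myh11 and Myocd, at or below 0.28 FPM in the 6 libraries compared, did not pass the filter. Of the 13 tested, 10 were higher and 1 was lower, against 19.3% and 20.9% of all genes. The median was 1.46. In growth medium 3 were higher and the median was 0.36, or 0.22 without Control GM replicate 2. Des is on this list and on the sarcomere list. Lmod1, an actin filament nucleator, measured 1.57, 1.74 and 1.60 FPM in Control DM3 against 31.5, 22.4 and 16.9 FPM in MUNC genomic DM3, a difference of 3.18 ± 0.29 (SE, limma adjusted p = 2.01e-07). Its interaction was 2.77 ± 0.41 (SE, limma adjusted p = 4.07e-04, edgeR adjusted p = 0.00640). Mylk, the kinase of the myosin light chain, and Synpo2, an actin-bundling protein, were higher by 2.10 ± 0.42 and 2.37 ± 0.14 (SE). Cnn1, a calponin of smooth muscle, was the 1 lower member, at 7.16, 6.96 and 4.95 FPM in control and 3.19, 1.63 and 0.449 FPM in MUNC genomic libraries.

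**Figure D4:**
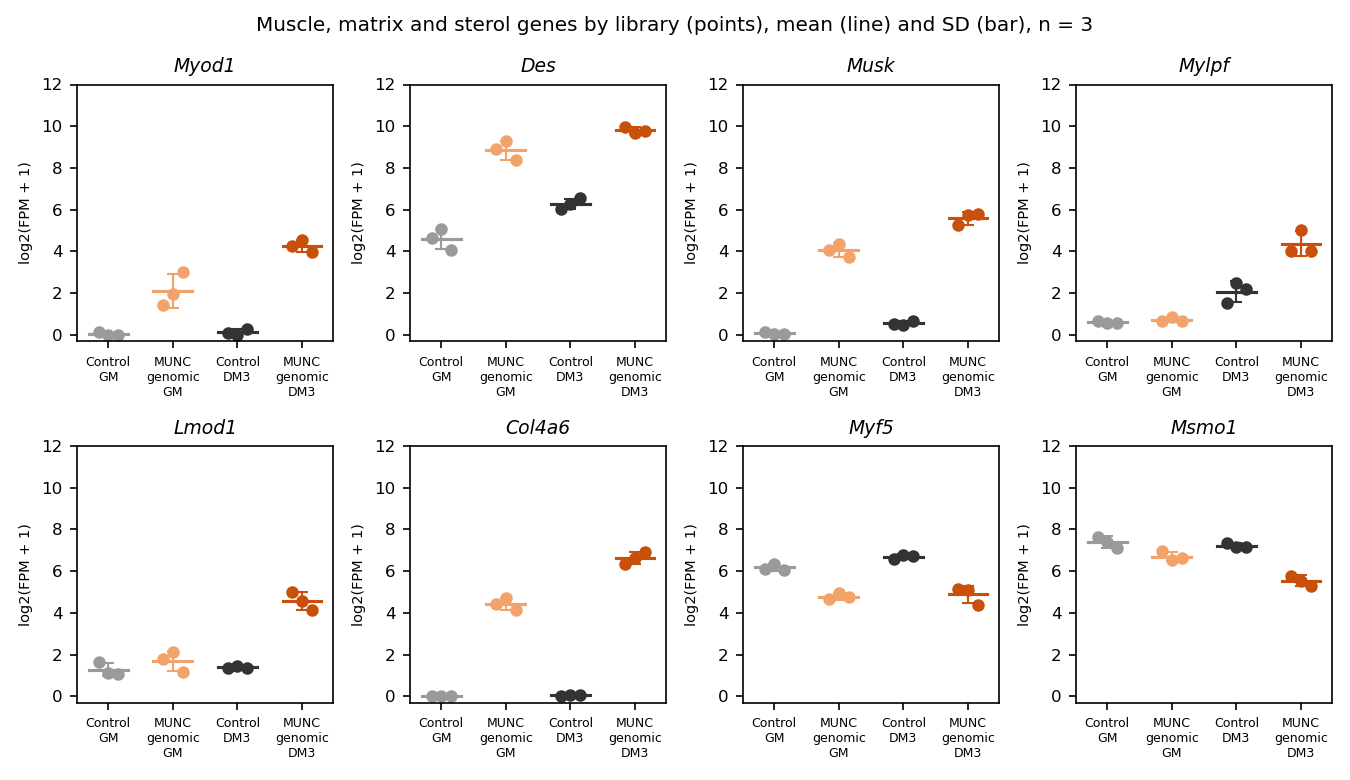
Level of 8 genes in log2(FPM + 1) in each of the 12 control and MUNC genomic libraries, with points for libraries, lines for group means and bars for the SD (n = 3). Des, Musk and Col4a6 are high in MUNC genomic cells in both media, Mylpf and Lmod1 are higher in MUNC genomic DM3, and Myf5 and Msmo1 are lower there than in Control DM3.

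More collagen genes were higher than lower in both media. Of 25 tested collagen genes, 11 were higher and 3 were lower in DM3, against 19.3% and 20.9% of all genes. The median was 0.25. In growth medium 11 were higher and 2 lower, against 12.2% and 14.5% of all genes. Col4a6, a chain of the basement membrane network, measured 0.0192, 0.0395 and 0.0553 FPM in Control DM3 against 80.2, 98.0 and 121 FPM in MUNC genomic DM3, a difference of 6.58 ± 0.16 (SE, limma adjusted p = 1.69e-14). Col4a5, another chain of that network, was higher by 1.96 ± 0.30 (SE). Col18a1, the precursor of endostatin, measured 215, 206 and 239 FPM in control and 1628, 1314 and 1482 FPM in MUNC genomic libraries, a difference of 2.74 ± 0.26 (SE). Col6a2, a chain of the microfibrils around muscle fibres, was higher by 2.92 ± 0.48 (SE) in DM3 and by 3.12 ± 0.48 (SE) in growth medium.

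Other matrix genes went both ways, with 12 of 44 higher and 16 lower, against 19.3% and 20.9% of all genes. Their median was -0.15. Fbln5, an organiser of elastic fibres, measured 22.6, 19.4 and 18.9 FPM in Control DM3 against 1.40, 1.34 and 1.46 FPM in MUNC genomic DM3, a difference of -3.14 ± 0.25 (SE) that was -3.07 ± 0.25 (SE) in growth medium. The adhesion-modulating glycoproteins Tnc and Thbs2 were lower, with differences of -2.13 ± 0.34 and -1.90 ± 0.20 (SE). Mmp15, a membrane-bound metalloproteinase, was higher by 3.26 ± 0.19 (SE, limma adjusted p = 9.25e-10).

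Wnt genes leaned upward, with 16 of 38 higher and 5 lower, against 19.3% and 20.9% of all genes. The median was 0.16, and 7 of the 16 were higher by 1 or more. Wnt7b, a secreted ligand, measured 4.19, 4.70 and 7.02 FPM in Control DM3 against 109.8, 87.7 and 100.3 FPM in MUNC genomic DM3, a difference of 4.01 ± 0.39 (SE, limma adjusted p = 3.94e-07). Lgr6, a receptor that strengthens Wnt signals, was higher by 5.02 ± 0.39 (SE). Sfrp2, a secreted Wnt-binding protein, measured 0, 0.0197 and 0.0184 FPM in control and 14.7, 8.62 and 11.3 FPM in MUNC genomic libraries. Dkk2, an inhibitor of Wnt co-receptors, was lower, with a difference of -3.22 ± 0.33 (SE). For these 4 genes the growth-medium difference had the same sign, at 3.19, 4.45, 3.39 and -3.00, and limma called no interaction.

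In the Notch list 1 ligand was higher and 1 receptor lower, while most genes were not called. Of 21 tested, 3 were higher and 3 were lower, against 19.3% and 20.9% of all genes, with a median of -0.02. The 15 not called included Notch2, Notch3, Notch4, Jag1 and Jag2. Dll1, a ligand, measured 0.922, 1.36 and 1.18 FPM in Control DM3 against 18.1, 23.5 and 17.0 FPM in MUNC genomic DM3, a difference of 3.24 ± 0.26 (SE). Notch1, a receptor, measured 17.2, 26.1 and 26.4 FPM in control and 0.989, 1.27 and 0.644 FPM in MUNC genomic libraries, a difference of -3.61 ± 0.28 (SE, limma adjusted p = 2.89e-08).

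Genes of TGF-beta and BMP signalling were balanced, with 12 of 42 higher and 11 lower, against 19.3% and 20.9% of all genes. Their median was 0.00. Grem1, a secreted BMP antagonist, measured 739, 563 and 719 FPM in Control DM3 against 16.2, 26.3 and 20.4 FPM in MUNC genomic DM3, a difference of -4.96 ± 0.38 (SE, limma adjusted p = 2.35e-08). It was also low in MUNC spliced DM3, with 1002, 2856 and 3055 reads against 38507, 28542 and 39040 in Control DM3. Smad3, which carries TGF-beta signals to the nucleus, was higher by 1.46 ± 0.21 (SE). In the IGF and FGF list 7 of 32 were higher and 7 lower, close to the 19.3% and 20.9% of all genes. The median was -0.06. Igfbp5, a secreted IGF-binding protein of differentiating myoblasts, measured 294, 201 and 308 FPM in control and 2634, 2852 and 2763 FPM in MUNC genomic libraries. Hgf, the ligand of Met, was lower, with a difference of -2.33 ± 0.26 (SE) and an interaction of -2.13 ± 0.37 (SE), and the growth factor Fgf10 was lower with a difference of -5.05 ± 0.30 (SE).

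Axon guidance genes had 11 of 49 higher and 16 lower, against 19.3% and 20.9% of all genes, and a median of -0.12. Sema3c, a secreted semaphorin, had the largest rise of all genes tested, from 0.192, 0.533 and 0.663 FPM in Control DM3 to 337, 324 and 234 FPM in MUNC genomic DM3, a difference of 7.67 ± 0.45 (SE, limma adjusted p = 8.13e-10). MUNC spliced DM3 shared this rise, with 13845, 17240 and 16374 reads of Sema3c, against 10, 27 and 36 in Control DM3. Slit2, a repulsive ligand of Robo receptors, measured 47.2, 37.2 and 43.5 FPM in Control DM3 against 0.831, 1.02 and 0.702 FPM in MUNC genomic DM3, a difference of -4.55 ± 0.28 (SE). Unc5c, a netrin receptor, and L1cam, an adhesion molecule, were lower, with differences of -3.57 ± 0.36 and -3.33 ± 0.24 (SE). Unc5c had an interaction of -2.61 ± 0.51 (SE, limma adjusted p = 0.00406, edgeR adjusted p = 0.00621).

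Genes of cholesterol synthesis and uptake were lower or not called in DM3. Of 24 tested, 12 were lower in MUNC genomic DM3, and the median was -0.86; in growth medium 1 was lower (2 with the replicate number as a block), 1 was higher and the median was -0.08. The count of lower genes was 20 when only the 6 libraries compared were fitted. Msmo1, a sterol oxidase, measured 162, 142 and 140.1 FPM in Control DM3 against 54.4, 46.0 and 37.9 FPM in MUNC genomic DM3, a difference of -1.67 ± 0.30 (SE, limma adjusted p = 3.43e-04). Insig1, which holds the sterol sensor in the endoplasmic reticulum, and Dhcr7, a late enzyme of the pathway, were lower, with differences of -1.20 ± 0.30 and -1.02 ± 0.22 (SE). No gene of the list had an interaction in limma, edgeR or DESeq2 at an adjusted p under 0.05, while 8 had one at an unadjusted p under 0.05 in limma and 2 with the replicate number as a block. Between GM and DM3, 16 of the 24 were lower in MUNC genomic cells, against 25.1% of all genes.

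Glycolytic genes were lower in part, with 9 of 28 lower and 3 higher, against 20.9% and 19.3% of all genes. Their median was -0.28. Slc2a1, the glucose transporter GLUT1, measured 246, 232 and 236 FPM in Control DM3 against 133, 79.3 and 97.0 FPM in MUNC genomic DM3, a difference of -1.23 ± 0.17 (SE, limma adjusted p = 2.41e-05). The enzymes Gpi1 and Aldoa were lower, with differences of -0.92 ± 0.15 and -0.91 ± 0.16 (SE). Slc16a3, a lactate exporter, was higher, at 1.34, 1.22 and 2.21 FPM in control and 44.7, 31.3 and 43.5 FPM in MUNC genomic libraries, with a difference of 3.98 ± 0.19 (SE) in DM3 and 4.39 ± 0.19 (SE) in growth medium.

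Few cell cycle genes were called, with 2 of 45 higher and 4 lower, against 19.3% and 20.9% of all genes. The median was -0.08. The count of lower genes was 9 when only the 6 libraries compared were fitted and 6 with the replicate number as a block (4 then higher). It was 1 without Control DM3 replicate 1 or 3 or MUNC genomic DM3 replicate 2. The 4 lower genes were Cdc20, Kif20a, E2f1 and Cdt1. Both higher genes, Mcm2 and Mcm6, encode subunits of the replicative helicase. Mcm2 measured 23.1, 10.7 and 12.6 FPM in Control DM3 against 40.01, 41.3 and 41.4 FPM in MUNC genomic DM3, a difference of 1.42 ± 0.29 (SE, limma adjusted p = 0.00104), and Mcm6 was higher by 1.12 ± 0.31 (SE). All 45 genes of the list were lower in DM3 than in GM in control cells and in MUNC genomic cells.

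Among genes outside the interferon lists, the large differences were mostly present in both media. Of the 226 such genes lower by 2 or more in DM3, 158 (69.9%) were also called lower in growth medium, which is 8.04% of the genes outside the lists called lower there. Of the 226 genes higher by 2 or more, 196 (86.7%) were also called higher in growth medium, which is 11.6% of the genes called higher there. Of the 87 interferon genes lower by 2 or more, 48 (55.2%) were called lower in growth medium, 94.1% of the interferon genes called lower there. These called genes were 51, and 38 without Control GM replicate 2. The overlaps between media given here were counted with that library included. Among genes lower by 4 or more, 34 of 41 interferon genes (82.9%) and 35 of 40 outside the lists (87.5%) were also called lower in growth medium. At 6 or more it was 14 of 14 and 3 of 3.

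The lowest genes outside the lists included Slc24a3, a sodium, potassium and calcium exchanger, at 142, 151 and 125 FPM in Control DM3 against 0, 0 and 0.0195 FPM in MUNC genomic DM3. Brinp3, a neural protein linked to retinoic acid, measured 135, 186 and 171 FPM and 0.0989, 0.286 and 0.800 FPM. Colec12, a scavenger receptor, measured 469, 453 and 436 FPM and 9.24, 15.2 and 12.4 FPM. All 3 were also lower in growth medium, with differences of -5.18 ± 0.20, -5.60 ± 0.20 and -6.04 ± 0.30 (SE).

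Ly6a and Gm4951, also among the lowest, were on none of the lists. Ly6a, the surface antigen Sca-1, which interferon is known to induce, rose with differentiation in control cells by 3.996 ± 0.40 (SE) and in MUNC genomic cells differed by 0.11 ± 0.40 (SE, limma adjusted p = 0.853). It measured 1919.8, 1769 and 1531 FPM in Control DM3 against 37.6, 32.8 and 28.4 FPM in MUNC genomic DM3, with an interaction of -3.89 ± 0.56 (SE, edgeR adjusted p = 8.13e-04). Gm4951, which RefSeq also names Ifgga2, measured 104, 61.5 and 38.0 FPM in control and had no read in any MUNC genomic DM3 library.

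The highest genes outside the lists included Cd200, a surface ligand that restrains myeloid cells, at 1.69, 1.70 and 2.19 FPM in Control DM3 against 550.3, 470.2 and 391 FPM in MUNC genomic DM3. Gfra1, a co-receptor for GDNF, measured 5.97, 3.75 and 4.16 FPM and 589, 659 and 573 FPM. Stmn2, a microtubule regulator of neurons, measured 0.422, 0.395 and 0.276 FPM and 52.6, 45.7 and 38.9 FPM. Stmn2 was also higher in growth medium, by 5.54 ± 0.18 (SE), and limma called no interaction for Stmn2 or Cd200.

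Whole chromosomes differed by small amounts. The median difference over the 1105 tested genes of chromosome 2 was -0.27 in DM3 and -0.30 in growth medium, with 37.8% of its genes lower and 7.69% higher in DM3. Chromosome 10 had medians of 0.30 and 0.27 over 697 genes, with 41.6% higher and 8.46% lower. Chromosomes 12 and 18 had DM3 medians of -0.24 and -0.26, and chromosomes 1, 6 and 15 each had a DM3 median of 0.19. Across the 20 chromosomes the DM3 and growth-medium medians differed by at most 0.11, and the libraries of the 2 media are separate.

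The shifts of chromosomes 2 and 10 were present in every window tested on them. In each of 10 windows of 20 Mb on chromosome 2 with at least 20 tested genes, the median was below 0, from -0.33 to -0.21, and in each of 7 windows on chromosome 10 it was above 0, from 0.16 to 0.38. Windows of chromosomes 12 (6 windows) and 18 (5) were all below 0, and those of chromosomes 15 (6) and 19 (3) all above 0, in both media. On chromosome 1, 8 windows were above 0 and 2 below in DM3, and on chromosome 6, 7 and 1. Without the interferon lists the medians of chromosomes 2 and 10 were -0.27 and 0.30. In MUNC spliced DM3 against control they were -0.01 and 0.19. DNA copy number was not measured, and its part in these medians was not tested.

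**Figure D5:**
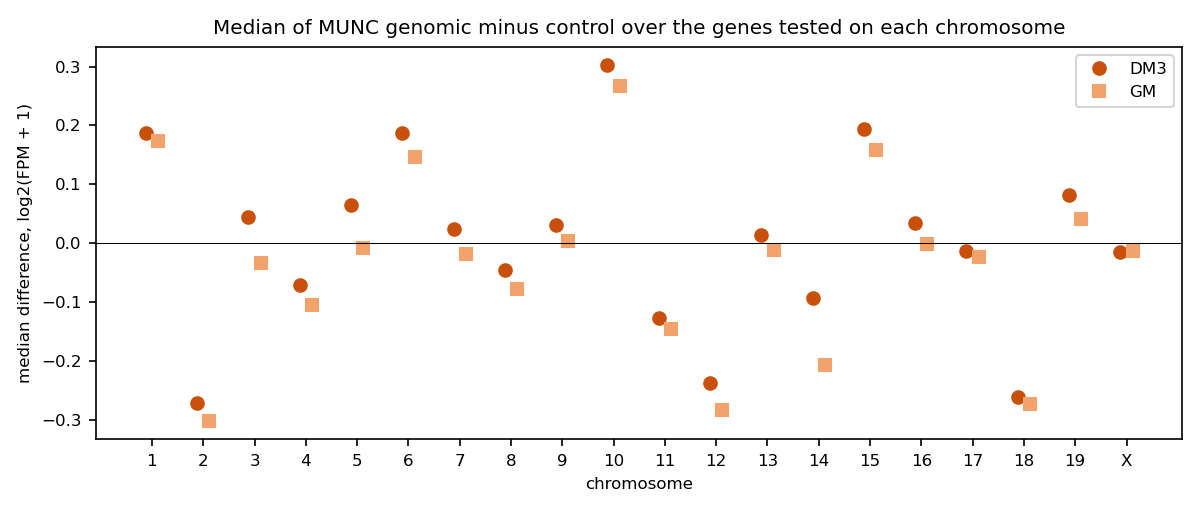
Median difference between MUNC genomic and control cells in log2(FPM + 1) over the tested genes of each chromosome, in DM3 (circles) and GM (squares). Chromosome 2 is at -0.27 in DM3 and -0.30 in GM, and chromosome 10 at 0.30 and 0.27.

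Markers of other cell types were counted beside these results. Of 10 macrophage markers 3 were tested, and the list summed to 4.51 to 6.37 FPM in Control DM3 against 3.63 to 4.21 FPM in MUNC genomic DM3, with C1qa at 0 in all 18 libraries. Endothelial markers (2 of 8 tested) summed to 0.384 to 0.671 FPM in control and 4.10 to 5.42 FPM in MUNC genomic libraries, of which Cdh5, a junction cadherin, made up 4.99, 3.83 and 3.79 FPM. Epithelial markers (3 of 9 tested) summed to 1.18 to 1.96 FPM and 12.8 to 21.8 FPM, with the keratin Krt8 at 13.4, 9.02 and 11.9 FPM in MUNC genomic DM3. The 9 neuronal and glial markers summed to 23.3 to 28.7 FPM in control and 61.7 to 86.9 FPM in MUNC genomic libraries, and the 10 adipocyte markers, with Lep at 0, to 8.38 to 10.9 FPM and 14.8 to 19.5 FPM. The 8 osteoblast markers, with Ibsp at 0 and Spp1 included, summed to 3259 to 3505 FPM in control and 1040.3 to 1205 FPM in MUNC genomic libraries. Fibroblast markers, with Tcf21 at 0, summed to 998 to 1375 FPM and 1421 to 1784 FPM, and myoblast and myotube markers to 310 to 447 FPM and 1254 to 1459.8 FPM. Des made up most of this last sum in each MUNC genomic library. Of the 13 myoblast and myotube markers, 10 were higher and 1, Myf5, was lower, against 19.3% and 20.9% of all genes. The part of other cell types in the results was not tested. In the authors' deposited table for this comparison, 5426 of the 5586 genes called here (97.1%) were called in the same direction, and 67 of the 70 effectors were lower.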

How the data were processed

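Poly(A) RNA of C2C12 cells was sequenced on an Illumina HiSeq, per the labels' protocols, in 6 groups of 3 libraries (Control, MUNC spliced and MUNC genomic cells, each in GM and DM3). STAR, HTSeq, DESeq2 and the build mm10 are named in the submitters' processing notes, without versions. Strand and multimapping settings are not given in the sources used here, so near-identical genes (Oas, Gbp, Ifit and H2 families) are uncertain. The authors deposited a normalized signal table in FPM, in which 100% of the values tested gave whole reads within 0.1 read when multiplied back, and a table of their own comparisons with log2 fold changes, p-values and scores such as test statistics, used only where it is named.

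Groups were taken from sample titles, since another label that calls cells myoblasts or myotubes disagrees with some titles. Genes that reached 0.5 FPM in 3 or more of 18 libraries were tested on log2(FPM + 1) with limma 3.58.1 (trend) in R 4.3.3, with 6 group means in 1 fit (12 residual degrees of freedom) and Benjamini-Hochberg adjustment over 13869 genes. edgeR 4.0.16 (quasi-likelihood) and DESeq2 1.42.0 were run on the recovered reads as alternatives, and the procedure was tested on simulated data. Differences on the log2(FPM + 1) scale understate the change of low genes. A difference is MUNC genomic minus control unless stated, and the interaction is the difference in DM3 minus that in GM. Replicate numbers are biological replicate numbers in the labels; whether they mark separate cultures is not stated, so p-values measure the spread between these samples. Same-numbered libraries deviated together, with correlations of 0.421, 0.274 and 0.448 for numbers 1, 2 and 3, so the number was also fitted as a block.

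The comparison, its members and the gene lists were chosen with earlier results of these data known. Named genes were any tested member of the receptor and JAK-STAT, sensing and myogenic regulator lists; in other lists up to 5 higher and 5 lower called genes by size of change, without overlap between groups and with at least 1 FPM in the higher group; and outside the interferon lists the 12 highest and 12 lowest by the same rule at 5 FPM. Isg15, Nmi, Chrna1 and Chrnb1 lie outside that rule and were chosen after their values were seen. Promoter sequences, gene positions and names of older symbols came from RefSeq (GRCm38.p6). Depth was 38416702 to 68788327 reads over the 18 libraries. Results on a few genes are not reported here.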

Additional observations from a re-analysis of the deposited data

Results flagged for a closer look

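For 45 of the genes named here the difference between MUNC genomic and control cells was not the same in the 2 media, by the limma interaction on the log2(FPM + 1) scale (DM3 minus GM, adjusted p under 0.05 over 13869 genes). All 45 had the same sign without Control GM replicate 2, and 43 stayed called; Myod1 (limma adjusted p = 0.0541) and Chrng (limma adjusted p = 0.0560) did not. All 45 were called with the replicate number as a block, and 19 were also called by edgeR on recovered reads. The 19 were Stat2, Irf9, Irf5, Sema3c, Dhx58, Tap1, Psmb9, B2m, Ly6a, Grem1, Unc5c, Notch1, Hgf, Eya1, Eya4, Ifi27, Ryr1, Lmod1 and Mthfd2.

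Among interferon signal carriers and sensors the interactions were Stat2 (-2.63), Irf9 (-1.65), Irf7 (-4.33), Irf5 (-1.57), Ifih1 (-1.90), Ddx58 (-1.89) and Dhx58 (-3.97). Among effectors, GTPases, class I genes and the chemokine Ccl5 they were Ifi44 (-5.65), Oas2 (-5.69), Oas3 (-5.95), Isg15 (-2.48), Iigp1 (-4.74), Gbp7 (-3.79), Tap1 (-2.28), Psmb9 (-2.50), B2m (-2.39) and Ccl5 (-3.91). Other genes with a negative interaction were Ly6a (-3.89), Gm4951 (-5.10), Grem1 (-2.42), Unc5c (-2.61), Slit2 (-1.45), L1cam (-1.15), Notch1 (-1.37), Hgf (-2.13), Fgf10 (-2.29), Slc24a3 (-1.93), Brinp3 (-1.30), Eya1 (-1.36), Eya4 (-0.81) and Chrng (-2.03). For Gm4951 and Oas3, at or near no read in MUNC genomic DM3, the size depends on the added 1 FPM. For Eya4 the negative value means that the gene was higher by less in DM3 than in growth medium.

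Genes with a positive interaction were Ifi27 (2.00), Cx3cl1 (0.94), Myod1 (2.04), Myog (2.85), Myl1 (2.28), Musk (1.05), Ryr1 (2.46), Lmod1 (2.77), Col4a6 (2.16), Mmp15 (1.95), Dll1 (2.75), Gfra1 (1.56), Sema3c (4.01) and Mthfd2 (1.07). Ifi27 was lower in MUNC genomic cells in growth medium, with a difference of -1.25 ± 0.22 (SE), and higher in DM3, with one of 0.75 ± 0.22 (SE). The edgeR test gave the same call for Ifi27 (adjusted p = 0.00174).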

How the results depend on the processing

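Of 112 tested genes named with their values, 103 were called in DM3, and 97 of these kept direction and call in every alternative tried. The alternatives were edgeR, DESeq2, other pseudocounts and filters, equal sums, quantile normalization, the replicate block, only the groups compared, and leaving out 1 library. Tapbpl, Id1, Trib3, Ldha, Chrna1 and Ticam1 lost a call without 1 library, and Tapbpl and Id1 also with no filter. Requiring a change of at least 1 on the log2 scale left 1544 genes in DM3 (691 higher, 853 lower), 601 with an interaction, 1830 against MUNC spliced DM3, 8 lower cholesterol genes and 7 higher Wnt genes. The interaction count, 1222, was 777 by edgeR, 784 to 1345 with 1 library left out (lowest without Control DM3 replicate 2), 2265 with the replicate number as a block, and 2419 with the block and only the groups compared, a setting chosen after seeing the data. Effectors with an interaction were 60 by limma and 34 by edgeR. Cholesterol genes lower in DM3 were 20 with only the groups compared, with or without the block. The block moved many list counts, also some printed without its value, and many interaction counts. It ended no call among the 103 genes. With it the DM3 counts of lower genes were 119 over the interferon lists, 19 in the matrix list, 12 in glycolysis and 9 in p53 targets. Higher genes of the TGF-beta and BMP list were then 15. The signs of 3 uncalled genes turned. With 1 library left out Jak1 ran from -0.015 to 0.036, Nmi from -0.20 to 0.37 and Tbk1 from -0.073 to 0.027. Tbk1 was 0.018 by DESeq2, 0.022 with equal sums, 0.0063 by edgeR and 0.053 with quantile normalization. No scaling moved the median of all genes by as much as 0.1. A count of 0 allowed up to 0.0594 FPM in the 6 libraries compared.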

Other observations

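The stress and arrest lists also held large differences in both directions. Of 21 tested p53 targets, 4 were higher and 7 were lower in MUNC genomic DM3, with a median of -0.44, against 19.3% and 20.9% of all genes. Perp, a desmosomal protein, measured 22.9, 16.7 and 14.0 FPM in Control DM3 and 25.4, 18.5 and 18.2 FPM in Control GM, and no MUNC genomic library in either medium held a read. The MUNC spliced DM3 libraries held 1, 1 and 3 reads of Perp. Pmaip1, the cell death protein Noxa, measured 0.134, 0.296 and 0.221 FPM in Control DM3 and 19.1, 16.3 and 15.7 FPM in MUNC genomic DM3, a difference of 3.89 ± 0.11 (SE, limma adjusted p = 8.25e-14), and was also higher in growth medium, by 3.58 ± 0.11 (SE).

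Of 26 tested Atf4 targets, 7 were higher and 5 were lower, against 19.3% and 20.9% of all genes. The median was 0.09. The mitochondrial folate enzymes Mthfd2 and Shmt2 were higher by 1.48 ± 0.15 and 1.06 ± 0.21 (SE), and Mthfd2 measured 48.7, 44.9 and 45.3 FPM in control and 132, 124 and 138 FPM in MUNC genomic DM3. The stress genes Ddit3 and Trib3 were lower, with differences of -1.46 ± 0.31 and -1.30 ± 0.40 (SE, limma adjusted p = 0.00128 and 0.0168). The call of Trib3 was lost without Control DM3 replicate 3 or MUNC genomic DM3 replicate 2, with limma adjusted p-values of 0.0593 and 0.0667.

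Genes near Myod1 on chromosome 7 went both ways. Of 18 tested, 4 were higher and 3 were lower, against 19.3% and 20.9% of all genes, with a median of -0.01. Myod1 itself was 1 of the 4. Plekha7, a junction protein, was lower, with a difference of -1.50 ± 0.25 (SE), and Ldha, a lactate dehydrogenase, with one of -0.63 ± 0.18 (SE, limma adjusted p = 0.00970). The call of Ldha was lost without MUNC genomic DM3 replicate 2 (limma adjusted p = 0.0554).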
